A study of Mus musculus with 4 samples.

Results

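The genes described here act in late G2 phase and in mitosis: cyclins and their kinase, checkpoint proteins, kinetochore proteins and spindle motors. There were 34 of them on a list fixed by symbol, and 33 were measured, out of the 8892 genes that had a tested probe set with a single symbol. A probe set is a group of short array probes for 1 transcript, and where a gene had several, the one with the highest mean over the 4 libraries stood for it. The other gene on the list, Ccnb1, was not analysed here.

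Cells enter mitosis when cyclin A2 and the B cyclins bind and activate the kinase Cdk1. Polo-like and Aurora kinases then build the spindle, the checkpoint proteins watch over the attachment of chromosomes, and the anaphase-promoting complex with its activator Cdc20 marks cyclins and securin for destruction. Transcripts of these genes are made mainly in G2 and M phase under B-Myb, FoxM1 and the MuvB complex, so in a growing culture their summed level follows the share of cells that are dividing. In bulk RNA, fewer cells in G2 or M phase and less RNA per such cell cannot be told apart.

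RNA came from BA/F3, an established mouse cell line that needs interleukin 3 and stands in for early B lymphocytes. Going by title, which source name and genotype match, 2 libraries came from cells carrying the human fusion gene ETV6-RUNX1, also called TEL-AML1, in inducible form, and 2 came from control cells without it, which the series text calls empty vector lines. All cells had received 32.5 pM mifepristone, the inducer, for 16 h, and total RNA was taken from equal numbers of cells per library. The promoter that drives the fusion, and whether each line was 1 clone or a pool, were not stated in the labels read here. The libraries are called fusion 1, fusion 2, control 1 and control 2 after their titles. The description field goes against the titles in replicate 1: it names fusion 1 a control library and control 1 a fusion library. Grouped by description, the fusion group is therefore control 1 with fusion 2, and the control group is fusion 1 with control 2. The labels do not settle which is right, and every comparison is given both ways. The series text speaks of chromatin precipitation, but the values are RNA levels on a log2 scale, where a difference of 1 is a doubling.

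The common beta chain of the interleukin 3 receptor, Csf2rb, read 14.08 to 14.78 in the 4 libraries and the B lineage gene Cd79b read 8.31 to 8.81. Of the 12 pro-B and interleukin 3 receptor markers on the array, 6 lay within 0.5 of the array's lowest value in all libraries, among them Pax5, Ebf1 and Rag1. Of 6 fibroblast markers, 5 lay there too. Between 17517 and 17688 probe sets per library read 4 or more, and 17720 with a mean of at least 4 were tested. Over the tested probe sets 53.9% of the variation between libraries ran along the description, 36.5% along the replicate number and 9.61% along the title. Nothing in the labels says whether replicates were separate cultures, so each p-value reflects only how far these 4 libraries spread.

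A feature that mitotic genes are known to share is the CHR, a short promoter element bound by the MuvB complex, often placed downstream of CCAAT boxes bound by the factor NF-Y. Because most members found in the promoter table hold these letters, the stretch around the annotated gene start is shown for some. They are members on which the results below turn or that stand for a class. Each runs from 120 bases before to 20 bases after the start, 5′ to 3′ on the gene's own strand, from RefSeq in the GRCm38.p6 build. Capitals mark CHR letters (TTTGAA, its reverse complement TTCAAA, or TTCGAA) and CCAAT boxes (CCAAT or ATTGG).
Ccnb2, chr9:70421535-70421674, minus strand: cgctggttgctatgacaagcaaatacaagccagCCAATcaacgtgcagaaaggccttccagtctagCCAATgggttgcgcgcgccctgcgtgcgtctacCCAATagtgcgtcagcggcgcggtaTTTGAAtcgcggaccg
Cdk1, chr10:69352893-69353032, minus strand: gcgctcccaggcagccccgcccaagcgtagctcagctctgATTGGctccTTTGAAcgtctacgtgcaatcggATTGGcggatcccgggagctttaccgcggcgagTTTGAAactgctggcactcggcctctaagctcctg
Cdc20, chr4:118437324-118437463, minus strand: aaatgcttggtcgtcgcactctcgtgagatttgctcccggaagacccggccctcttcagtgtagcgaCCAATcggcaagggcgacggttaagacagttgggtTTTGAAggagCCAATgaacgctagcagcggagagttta
Kif11, chr19:37376262-37376401, plus strand: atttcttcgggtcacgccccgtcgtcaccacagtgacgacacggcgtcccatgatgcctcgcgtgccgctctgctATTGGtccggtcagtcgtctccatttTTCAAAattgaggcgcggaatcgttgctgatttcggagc
Kif2c, chr4:117178753-117178892, minus strand: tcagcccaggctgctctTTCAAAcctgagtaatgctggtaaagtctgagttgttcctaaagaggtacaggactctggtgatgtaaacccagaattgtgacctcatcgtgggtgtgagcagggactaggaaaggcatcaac
Mki67, chr7:135716360-135716499, minus strand: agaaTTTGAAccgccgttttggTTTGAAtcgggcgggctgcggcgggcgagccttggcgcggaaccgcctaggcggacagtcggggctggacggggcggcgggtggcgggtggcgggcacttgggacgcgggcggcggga
Cenpf, chr1:189688067-189688206, minus strand: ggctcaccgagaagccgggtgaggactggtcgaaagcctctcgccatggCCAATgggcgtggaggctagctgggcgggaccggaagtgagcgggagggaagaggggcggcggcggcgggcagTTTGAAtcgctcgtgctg
Cenpe, chr3:135212443-135212582, plus strand: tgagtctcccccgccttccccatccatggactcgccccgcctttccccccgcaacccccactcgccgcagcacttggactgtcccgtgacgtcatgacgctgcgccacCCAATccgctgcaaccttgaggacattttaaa

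The promoters of Ccnb2 and Cdc20 both have a CHR near the start and CCAAT boxes close by. In Ccnb2 the CHR begins at base 5 after the start and all 3 CCAAT boxes lie ahead of it. In Cdc20 it begins 18 bases before the start, with a CCAAT box on either side. The Cdk1 stretch holds 2 CHR and 2 CCAAT matches. Kif11 carries its CHR as TTCAAA, 19 bases before the start. Kif2c has TTCAAA 103 bases before the start and no CCAAT box in the stretch, whereas Cenpe has a CCAAT box 12 bases before the start and no CHR letters. These matches are letters, not measured binding sites.

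Of the 33 measured members, 27 matched the RefSeq promoter table, whose windows hold 300 bases, from 250 before to 50 after each start. Searched on both strands, 21 of the 27, or 77.8%, held CHR letters, against 21.7% of the 27025 genes in the table. CCAAT boxes were held by 21 members, again 77.8%, against 41.1% of all genes. Both were held by 19 members, 70.4%, against 8.61% of all genes. In the members, 19 had CHR letters that began within 50 bases of the start, and matches overlapped only once, in Ube2c. A fixed list of other mitosis genes held CHR letters in 49.5% of 109 genes, and a fixed list of G1/S genes, which act in DNA replication, in 16.0% of 25. CCAAT boxes were held by 59.6% of those other mitosis genes and by 68.0% of those G1/S genes. A high share of CCAAT boxes was therefore not particular to the members. Birc5, Cks2, Mad2l1, Nuf2 and Nusap1 also lacked CHR letters in this window, as Cenpe did.

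All 33 measured members were clearly expressed in all 4 libraries. The lowest single reading was 7.85, for Foxm1 in control 2, and the array's lowest value was 2.23. Levels of different probe sets are not comparable, and only differences between libraries are read below. These differences were small. From the lowest to the highest library a member spanned a median of 0.40 log2, against 0.71 over all tested probe sets and 0.62 over the 8211 that were at least as bright as the dimmest member. A span of 1 or more was seen in 4 members, Cenpe, Kif11, Cenpf and Kif2c, or 12.1%. The share was 31.4% of all tested probe sets and 23.6% of those 8211.

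**Figure D1:**
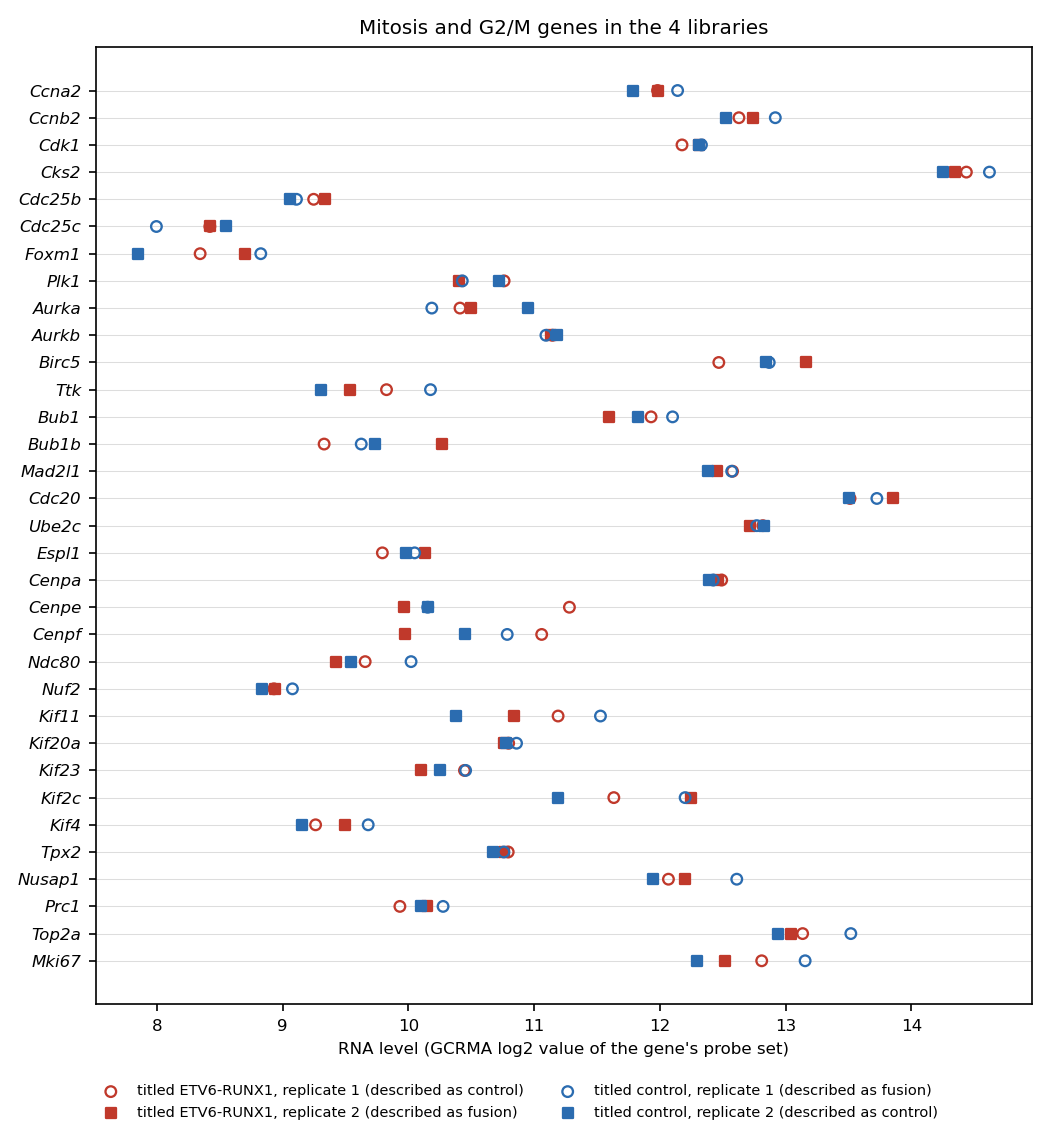
RNA level of each of the 33 members, as the GCRMA log2 value of its probe set, in the 4 libraries; colour gives the title, open circles replicate 1 and filled squares replicate 2. Most rows span less than 1 unit, control 1 is the highest library in 17 rows and control 2 the lowest in 17.

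Grouped by title, no mitotic gene passed a test between fusion and control. Of the 33 members 0 passed the adjusted threshold of 0.05 in limma, each had an adjusted p = 1, and 0 had an unadjusted p under 0.05. The background is as low: 0% of the 17720 tested probe sets passed the adjusted threshold and 0.282% had an unadjusted p under 0.05. The mean was higher in fusion for 14 members and lower for 19, so that 42.4% were higher against 47% of all tested probe sets, with a median difference of -0.04, against -0.01 over all tested probe sets. The largest difference was 0.47, for Cenpe, so that 0 members reached 2-fold, where 0.92% of tested probe sets did.

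The groups by title failed to overlap for 3 members, all higher in fusion, which is 9.09% against a background of 10.7% in either direction, 4.65% higher and 6.04% lower. Cdc25b, a phosphatase that activates Cdk1, read 9.25 and 9.34 in fusion 1 and 2 and 9.11 and 9.06 in control 1 and 2. Its difference was 0.21 (SE 0.23), and the 95% interval ran from -0.45 to 0.87. Cenpa, the histone H3 variant that marks centromeres, read 12.49 and 12.46 in the fusion libraries and 12.42 and 12.39 in the control libraries. Tpx2, which activates Aurora A on spindle microtubules, read 10.79 and 10.76 against 10.76 and 10.68. The groups of Cenpa were apart by a few hundredths of a unit, and those of Tpx2 met at 10.76 to the precision printed.

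For 22 of 33 members the interval by title lay within a 2-fold change in both directions. For the other 11 it did not, so a doubling or halving of those members was not excluded. The widest bounds were -1.41 for Cenpf and 1.95 for Cenpe. The median SE was 0.25 by title and 0.18 by description. These intervals hold for 1 gene at a time and are not adjusted for the number of genes.

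Grouped by description, 24 members had a higher mean in the fusion group and 9 a lower one, so that 72.7% were higher against 48.4% of all tested probe sets, with a median difference of 0.12 against -0.01 over all tested probe sets. None of the 33 passed the adjusted threshold in limma, where 0.0113% of tested probe sets did, and adjusted p-values ran from 0.17 to 0.998. An unadjusted p under 0.05 was found for 2 members, Kif2c and Cdc20, which is 6.06% against a background of 19.7%. No member reached a 2-fold difference, against 9.93% of tested probe sets, or 9.23% with groups that also did not overlap. The median rests on 2 libraries: it was 0.022 without control 1 and 0.03 without control 2, and in both cases 19 members were higher and 14 lower.

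**Figure D2:**
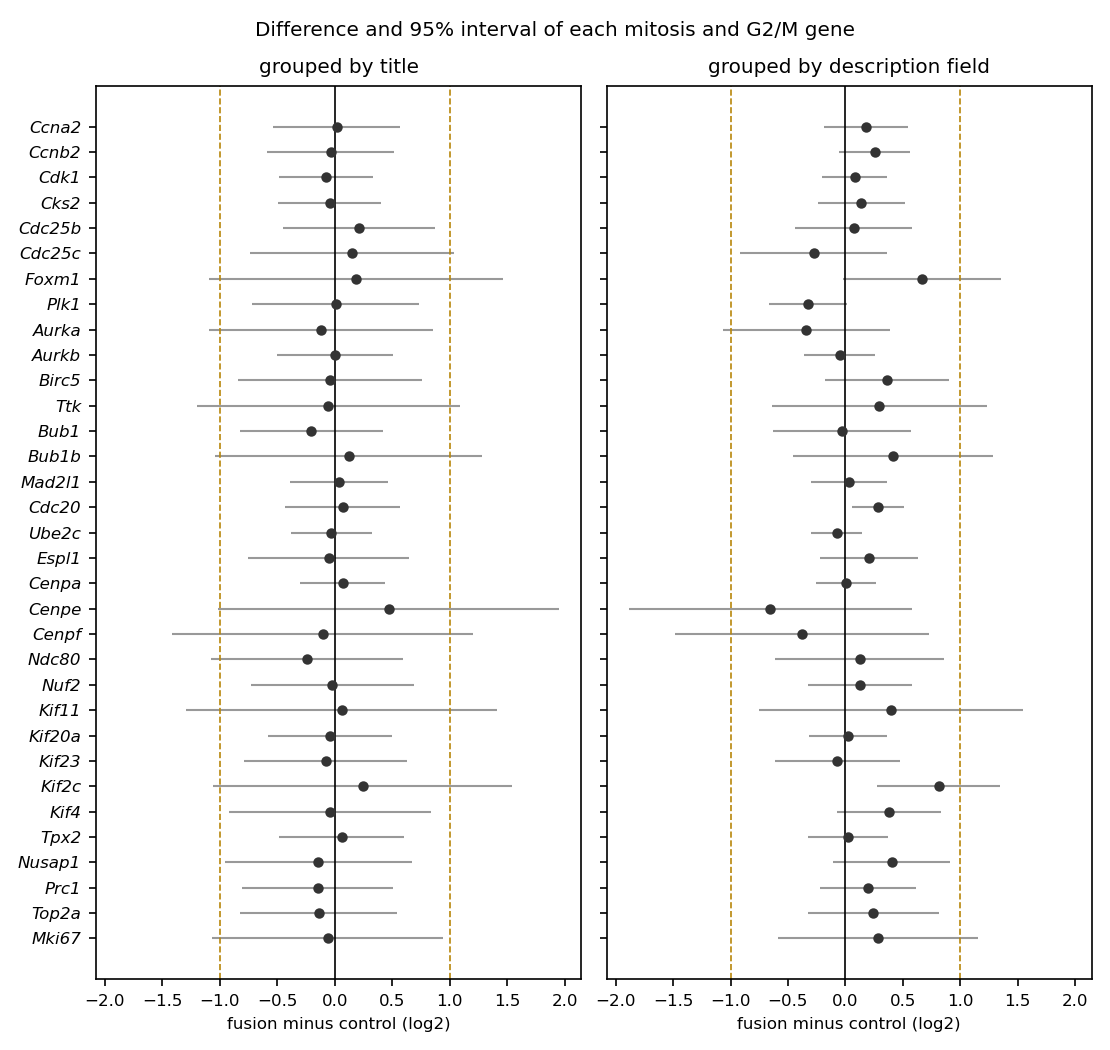
Fusion minus control difference (log2) of each member with its 95% interval from limma, grouped by title on the left and by description on the right; dashed lines mark a 2-fold change. By title all points lie within 0.47 of 0, and by description Kif2c and Cdc20 have intervals that do not reach 0, before any adjustment.

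The groups by description failed to overlap for 15 members, 45.5%, against 50.4% of all tested probe sets. Of these, 12 were higher in the fusion group, 36.4% against 25.3%, and 3 were lower, 9.09% against 25.1%. The 12 were Ccna2, Ccnb2, Cdk1, Foxm1, Birc5, Cdc20, Espl1, Nuf2, Kif2c, Kif4, Nusap1 and Prc1, and the 3 were Plk1, Aurkb and Ube2c. The total without overlap was thus below the background share.

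In the same libraries markers of other blood cells also differed. On the array were 13 listed markers of mast cells, basophils and myeloid cells. Of the 6 that were tested, 4 were higher by description and 2 lower, and 0 passed the adjusted threshold in limma. By title the sign was the other way for most: 0 of the 6 had a higher mean in fusion. Fcer1a, Ms4a2 and Mpo were at least 2-fold lower by title, with groups that overlapped. The mast cell and basophil genes Fcer1a, Ms4a2 and Hdc were higher without overlap, and Fcer1a read 9.91 and 7.69 against 2.37 and 2.32. The granule genes Mpo and Prtn3 had lower means with groups that overlapped, and in the replicate 2 pair they differed by -3.51 and -1.69. Of the defining genes, Kit, Elane and Ctsg lay at the floor in all 4 libraries. The 3′ minus 5′ difference of the dap labelling spike was 3.80 and 4.11 in the libraries described as fusion and 3.07 and 3.14 in the others, at 1 of its probe set pairs. The other dap pair read 3.71 and 4.43 against 3.10 and 3.19, and the thr spike 5.21 and 5.40 against 4.86 and 4.56. For the lys and phe spikes the groups by description differed by 0.09 and -0.08. The 3′ minus 5′ difference of Actb, an RNA of the cells themselves, ran from 0.63 to 0.70 over the 4 libraries. The part of these in the differences of mitotic genes was not tested.

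Among the cyclins and their regulators, 5 of 6 were higher by description and 1 was lower, none past the threshold. Ccnb2, cyclin B2, read 12.92 in control 1 and 12.74 in fusion 2, against 12.63 in fusion 1 and 12.52 in control 2. Its difference was 0.25 (SE 0.11, unadjusted p = 0.085, limma adjusted p = 0.32), with an interval from -0.06 to 0.56, which excludes a 2-fold change. By title Ccnb2 differed by -0.04 (SE 0.19). Ccna2, cyclin A2, read 12.14 and 11.99 in the libraries described as fusion and 11.98 and 11.79 in the others. The groups of Ccna2 were therefore barely apart.

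Cdk1, the kinase that these cyclins activate, read 12.33 and 12.31 in the libraries described as fusion and 12.18 and 12.31 in the others, a difference of 0.08 (SE 0.10). Cks2, a small subunit that binds Cdk1, differed by 0.14 and Cdc25b by 0.07. Cdc25c, the other phosphatase that activates Cdk1 here, read 7.997 in control 1, 8.42 in both fusion 1 and fusion 2, and 8.55 in control 2, which by description is a difference of -0.27 (SE 0.22). The 2 Cdc25 genes thus had differences of opposite sign, both smaller than 2 SE.

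Foxm1, which encodes a transcription factor that drives G2/M genes, had the next largest difference by description after Kif2c. It read 8.83 in control 1 and 8.70 in fusion 2, against 8.35 in fusion 1 and 7.85 in control 2. The difference was 0.66 (SE 0.24, unadjusted p = 0.055, limma adjusted p = 0.26). Its other tested probe sets had differences of the same sign, 0.80 and 0.99, with groups that overlapped at the former and did not at the latter. Control 2 was the lowest library and control 1 the highest at all 3.

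The mitotic kinases did not share a sign. Plk1, the polo-like kinase, read 10.43 in control 1 and 10.41 in fusion 2, against 10.76 in fusion 1 and 10.72 in control 2. Replicates by description agreed to within 0.04, and the difference was -0.32 (SE 0.12, unadjusted p = 0.057, limma adjusted p = 0.27). Aurka, the Aurora kinase of spindle poles, read 10.19 and 10.49 in the libraries described as fusion and 10.41 and 10.95 in the others. Aurkb, the Aurora kinase of centromeres and midzone, had one of the narrowest spans, 11.09 to 11.18 over all 4 libraries. Birc5, survivin, a partner of Aurora B, read 12.87 and 13.16 against 12.47 and 12.84, a difference of 0.36 (SE 0.19). Bub1, a checkpoint kinase, differed by -0.03 (SE 0.21).

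Among checkpoint proteins and the machinery of anaphase, 4 of 5 members were higher by description. Cdc20 read 13.72 in control 1 and 13.85 in fusion 2, against 13.51 in fusion 1 and 13.50 in control 2. That is 13.79 ± 0.09 (SD, n = 2) against 13.51 ± 0.01, a difference of 0.28 (SE 0.08, unadjusted p = 0.026, limma adjusted p = 0.20), or 1.22-fold. The other tested Cdc20 probe sets differed by 0.21 and 0.36, and the former overlapped between groups. By title the brightest Cdc20 probe set differed by 0.07 (SE 0.17). Ube2c, the ubiquitin-conjugating enzyme that works with Cdc20, ran from 12.72 to 12.83 over all libraries. Mad2l1, which encodes the checkpoint protein Mad2 that inhibits Cdc20, ran from 12.38 to 12.58. Espl1, separase, differed by 0.20 (SE 0.15).

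Kif2c gave the largest difference by description and the only 2-fold difference in the pair of libraries with undisputed labels. Its product, MCAK, is a kinesin that shortens microtubules and corrects wrong attachments at centromeres. It read 12.20 in control 1 and 12.24 in fusion 2, against 11.63 in fusion 1 and 11.19 in control 2. By description this is 12.22 ± 0.03 (SD, n = 2) against 11.41 ± 0.31, a difference of 0.81 (SE 0.19, unadjusted p = 0.014, limma adjusted p = 0.17), or 1.75-fold. By title the same readings gave 11.94 ± 0.43 against 11.70 ± 0.71 and a difference of 0.24 (SE 0.46). A dimmer Kif2c probe set read 9.41 and 9.06 in the libraries described as fusion and 8.56 and 8.09 in the others, a difference of 0.91. Both probe sets thus placed the 4 libraries in the same 2 groups, though they are not independent, as they share the RNA.

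The other spindle proteins ranged from nearly constant to clearly spread. Of the 8 kinesins and spindle proteins on the list, 7 were higher by description. Kif4, a chromosome-bound kinesin, read 9.68 and 9.50 in the libraries described as fusion and 9.26 and 9.15 in the others, a difference of 0.38 (SE 0.16). Nusap1, which bundles spindle microtubules, read 12.61 and 12.20 against 12.07 and 11.94, a difference of 0.40 (SE 0.18). Prc1, which cross-links the central spindle, read 10.28 and 10.15 against 9.93 and 10.10. By title Kif4, Nusap1 and Prc1 differed by -0.04, -0.14 and -0.15.

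Kif20a and Kif23, kinesins of cytokinesis, showed almost no difference by description, at 0.02 (SE 0.12) and -0.07 (SE 0.19). Kif20a lay between 10.76 and 10.86 in all 4 libraries. For both genes the interval excludes a 2-fold change.

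In the replicate 2 pair, fusion 2 against control 2, all labels name the same conditions. With 1 library on each side there is no replicate check and no test. Of 33 members, 22 read higher in fusion 2, where 47.6% of all tested probe sets did, with a median difference of 0.09 against -0.01 over all tested probe sets. Only Kif2c reached 2-fold, at 1.05, which is 3.03% of members against a background of 11.4%, of which 6.74% were higher and 4.7% lower. At 1.5-fold there were 2 members, against 29.3%. Foxm1, at 0.85, was the second, followed by Bub1b at 0.54 and Cenpf at -0.48. Both libraries of this pair are also part of the title and description comparisons.

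Several members differed more between replicate 1 and replicate 2 than along either label. Summed over members, 48.0% of the variation between libraries ran along the replicate number, 43.7% along the description and 8.34% along the title. For all tested probe sets the replicate share was 36.5%. The other mitosis genes listed further below had nearly the members' shares, 48.1% along the replicate number and 45.4% along the description. The median of replicate 1 minus replicate 2 was 0.14 over the members and 0.00 over all tested probe sets.

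Kif11, the kinesin that pushes spindle poles apart, read 11.19 and 11.53 in replicate 1 and 10.84 and 10.38 in replicate 2, fusion first in each pair. Its replicate difference was 0.75, against 0.40 by description and 0.06 by title. Cenpf, a large kinetochore protein, read 11.06 and 10.79 in replicate 1 and 9.97 and 10.45 in replicate 2, a replicate difference of 0.71. Ttk, the checkpoint kinase Mps1, differed by 0.58 between replicates. Mki67, which encodes the proliferation marker Ki-67, read 12.81 and 13.15 in replicate 1 and 12.52 and 12.30 in replicate 2. For these 4 genes every replicate 1 library lay above every replicate 2 library. The same held for Cks2, Bub1, Mad2l1, Ndc80, Kif20a, Kif23, Top2a and, barely, Cenpe, and the reverse for Bub1b and Aurka. The share of all tested probe sets that separate in this way was not counted.

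Cenpe, the kinesin that moves chromosomes to the spindle equator, was high in 1 library only. It read 11.28 in fusion 1 and 10.15, 10.15 and 9.97 in control 1, control 2 and fusion 2. A further Cenpe probe set did not repeat this distance, with 10.44 in fusion 1 and 10.34 in control 1. Bub1b, the checkpoint protein BubR1, ran the other way from most members, with 9.33 and 9.63 in replicate 1 and 10.27 and 9.73 in replicate 2. Aurka was also lower in replicate 1, by 0.42.

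**Figure D3:**
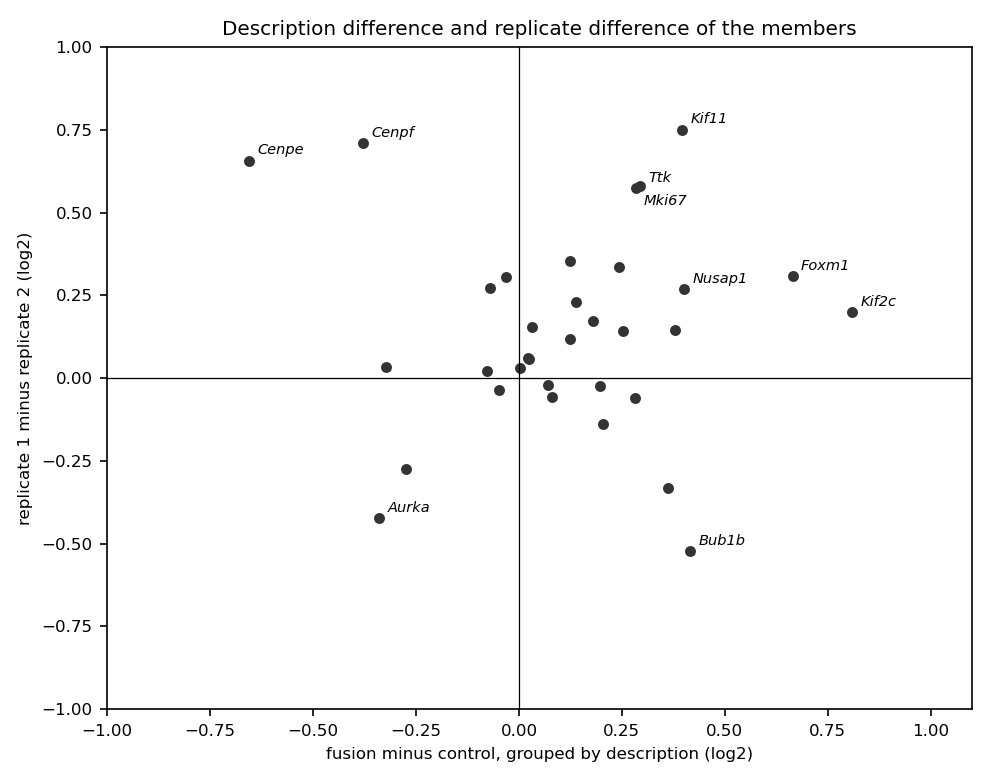
Each point is 1 of the 33 members; the horizontal axis gives fusion minus control grouped by description and the vertical axis replicate 1 minus replicate 2, both in log2. Kif2c lies farthest to the right at 0.81, Kif11 highest at 0.75, and Cenpe and Cenpf are high on the replicate axis and negative by description.

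Library by library, control 1 stood highest in 17 members, 51.5%, against 29.2% of all tested probe sets. Control 2 stood lowest in 17 members, also 51.5%, against 26.6%. The median member lay 0.13 above its own mean in control 1, 0.11 below it in control 2, and within 0.01 of it in fusion 1 and fusion 2. At the median the control libraries by title thus stood apart from each other, and the fusion libraries did not. Single members did differ between fusion 1 and fusion 2, such as Cenpe (11.28 and 9.97) and Bub1b (9.33 and 10.27). Leaving out fusion 1 changed the title sign of 9 members, and leaving out fusion 2 also of 9. Without control 1 the members were higher in fusion in 22 of 33 cases, and without control 2 in only 9. The title median moved to 0.10 without control 1 and -0.14 without control 2.

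Where a member had several tested probe sets, they could be compared. Of 19 such genes, 10 had 1 sign at all probe sets by title and 14 by description. By description, the sign differed within Aurkb, Bub1, Ccna2, Top2a and Tpx2. Top2a, the topoisomerase that untangles chromosomes, differed by 0.24 at its brighter and -0.09 at its dimmer probe set. The brighter read 13.52 and 13.04 in the libraries described as fusion and 13.13 and 12.94 in the others, so the groups overlapped. The dimmer Cenpf probe set read 8.35 in fusion 1 and 5.77 to 6.58 in the other libraries, which turned its title difference from -0.10 to 0.78.

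The kinetochore proteins Ndc80 and Nuf2, which form 1 complex that grips microtubules, both differed by 0.12 by description (SE 0.26 and 0.16). By title they differed by -0.24 and -0.02.

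The 21 members with CHR letters had a median of 0.20 by description, from -0.38 to 0.81, with 15 higher. The 6 without had a median of 0.13, from -0.66 to 0.40, with 5 higher. By title the medians were -0.05 with and -0.03 without CHR letters. No test was made of this contrast.

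Other mitosis genes were taken from a list that held none of these members. Of 127 listed, 121 were tested, and 0 passed the adjusted threshold by title or by description in limma. By description 24 had an unadjusted p under 0.05, 19.8% against 19.7% of all tested probe sets, of which 22 were higher (18.2% against 10.6%) and 2 lower (1.65% against 9.14%). By title 0 had an unadjusted p under 0.05. The median difference was 0.10 by description and -0.02 by title. Without fusion 1 and without fusion 2 the description median was 0.16 and 0.18.

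Those with the smallest p by description were Kif14, Ncaph, Mis18a, Cdca5, Dsn1 and Gtse1, and each read higher in the fusion group of that grouping. Ncaph, a subunit of condensin I, read 11.77 and 11.82 against 10.95 and 10.82, a difference of 0.90 (SE 0.12, limma adjusted p = 0.13). Dsn1, of the Mis12 kinetochore complex, read 9.39 and 9.18 against 8.48 and 8.48. Mis18a, which helps load Cenpa, differed by 0.57 and Cdca5, the cohesion factor sororin, by 0.54. Gtse1, a microtubule-binding protein of G2 phase, differed by 0.72. Kif14, a kinesin of cytokinesis, read 5.97 and 5.55 against 3.93 and 4.04, but the latter are near the filter limit.

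G1/S genes were set beside them as genes of another phase. Of 28 tested, 0 passed the adjusted threshold in either grouping, and their median difference was 0.03 by description and -0.02 by title. An unadjusted p under 0.05 by description was found for 4, Mcm7, Mcm3, Orc1 and Ccne2. That is 14.3%, below the 19.7% of all tested probe sets. Mcm7 and Mcm3, subunits of the same replicative helicase, differed by 0.39 and -0.33. Ccne2, cyclin E2, differed by 1.27 (SE 0.35, limma adjusted p = 0.20), and Orc1, of the origin recognition complex, by 0.73. The median absolute difference by description was 0.24 in the members, 0.24 in the other mitosis genes, 0.16 in the G1/S genes and 0.32 over all tested probe sets.

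**Figure D4:**
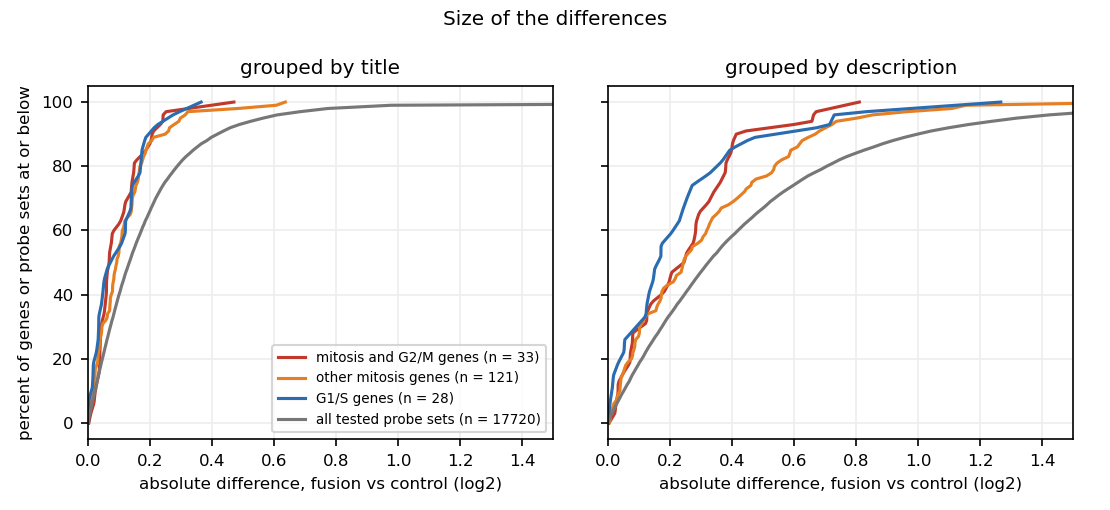
Cumulative share (percent) of genes or probe sets whose absolute fusion versus control difference (log2) lies at or below the value on the horizontal axis, by title on the left and by description on the right; the axis ends at 1.5. At the median the members had smaller differences than all 17720 tested probe sets, 0.07 against 0.13 by title and 0.24 against 0.32 by description, while the curves cross among the smallest differences. Over the 8211 probe sets at least as bright as the dimmest member, which are not drawn, the medians were 0.10 by title and 0.31 by description.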

How the data were processed

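The deposited table holds 1 log2 value per probe set and library for 45101 probe sets of a mouse 3′ expression array, deposited by the authors. They came from GCRMA 2.28.0 according to the submitters' processing notes, and the range of 2.23 to 16.3 fits a log2 scale. Filters and batch steps were not stated in the labels read here. Arrays have no read depth: precision depends on having 4 libraries.

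The 64 control probe sets were dropped, and the 17720 with a mean of at least 4 were tested with limma 3.58.1 in R 4.3.3 (lmFit, eBayes with trend, two-sided, Benjamini-Hochberg over all of them, threshold 0.05). Each fit used 4 libraries, 2 per group, by title or by description, with 2 residual degrees of freedom. "No overlap" means that every library of a group lies above every library of the other. The fit was tested on simulated data.

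Genes were named from the platform annotation, from probe sets with 1 symbol. The members and lists were chosen with earlier results of these data known. All members could be named, and up to 6 other mitosis and 4 G1/S genes with the smallest p by description. Any gene outside this rule is marked as such where it is named. Alternatives were other filters, no trend, quantile and 75th percentile scaling, other probe sets, a replicate block and leaving out each library.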

Additional observations from a re-analysis of the deposited data

How the results depend on the processing

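No member passed the adjusted threshold in limma by title or description under any alternative run that kept all 4 libraries. Nor did any other mitosis gene with other filters or a replicate block. That list was not run without trend, with quantile or 75th percentile scaling, or with other choices of probe set. With 1 library left out at a time, the members' median difference ran from -0.14 to 0.10 by title and from 0.022 to 0.19 by description (0.022 without control 1 and 0.03 without control 2). That of the other mitosis genes ran from -0.14 to 0.09 by title and from 0.10 to 0.18 by description. In these fits the lone library of a group is assumed to vary like the other group, and the cause of the shifts was not tested. Over all tested probe sets, 2 passed by description, against 14 after quantile normalization, 10 after 75th percentile scaling, 14 with gene means, and 0 with no filter, with the replicate block or without any 1 library. Kif2c differed by 0.59 to 1.03 by description over the alternatives, with adjusted p from 0.083 to 0.55 in limma. At 1.5-fold in place of 2-fold, 2 members, Foxm1 and Kif2c, differed in the replicate 2 pair. Quantile and 75th percentile scaling changed the sign of 1 member each by description, Bub1 and Cenpa, both near 0, and of 0 by title. At the second brightest probe set 9 of 19 genes changed sign by title and 5 of 19 by description. Replicate numbers are only shared labels here: same-numbered libraries deviated together by description (r = 0.59 over 17720 probe sets) and not by title (r = -0.20). With 2 libraries per group these correlations largely restate the shares of variation given above, so they do not tell whether the numbers pair libraries. With the replicate block 0 members passed, and the lowest limma adjusted p by description was 0.083 for Kif2c. In that fit, with 1 residual degree of freedom, 11 members in place of 2 had an unadjusted p under 0.05. The share of all tested probe sets in the same fit is not given here, so this count has no background and is not read as a result about the members. With the numbers crossed, a choice made after seeing the data, 0 members and 0 other mitosis genes passed by title.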

Other observations

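Other mitosis genes with at least 2-fold differences by description were 4 of 121, 3.31% against 9.23% of tested probe sets without overlap: Kif14, Nfyb, Ska1 and Ube2s. Except for Kif14 they are named after their values were seen, and none passed the adjusted threshold. Nfyb, a subunit of the CCAAT-binding factor NF-Y, read 9.91 and 9.34 in the libraries described as fusion and 8.70 and 8.43 in the others, and differed by 1.05 (SE 0.27, adjusted p = 0.19 in limma). The other NF-Y subunits, Nfya and Nfyc, differed by -0.01 (SE 0.17) and 0.17 (SE 0.14). Ska1, which holds kinetochores on shortening microtubules, read 11.28 and 11.46 against 9.84 and 10.60. Ube2s, which extends ubiquitin chains for the anaphase-promoting complex, was lower, with 10.93 and 10.95 against 11.50 and 12.70.

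Numa1, a spindle pole protein also named after its values were seen, differed mainly by replicate, with 7.02 and 7.38 in replicate 1 and 10.44 and 9.43 in replicate 2.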
